A study of Drosophila melanogaster with 12 samples.

Results

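Of the 751 genes that the authors' deposited table compares between Drosophila melanogaster spermatogonia and spermatocytes, 110 (14.6%) are listed with a long-form share of 100% at the 3′ end in spermatogonia and of less than 50% in spermatocytes. An extension is the segment listed for a gene at its 3′ end. In principle it is what a messenger RNA gains when it ends at a distal rather than a proximal site. How the authors defined the extensions is not given in the sources used here, and 17 of the 110 lie wholly past the annotated gene. The 110 genes were chosen by a rule, the limits on the long-form share given above, applied to the shares in the table. The long-form share is a quotient with a ceiling, described below, so a listed 100% does not show that every transcript was long. The set includes AGO1, mub, brat, mei-P26, zfh1, Mef2, CadN and the calcium channel genes cac and Ca-alpha1D. Because the rule uses these shares, the shares are given below as a description, and no p-value is read as support for them.

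Most animal genes can end their messenger RNA at more than 1 polyadenylation site. The distal choice adds sequence to the 3′ untranslated region (UTR), where microRNAs and RNA-binding proteins regulate the stability, location and translation of the message. In flies long 3′ UTRs are typical of the nervous system, where AGO1, brat and nej are known examples of genes with lengthened ends, while the testis is known for short ones. Male germ cells divide mitotically as spermatogonia before they become spermatocytes, which grow, switch on a large programme of transcription and enter meiosis.

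The series holds 12 libraries in 5 groups. SG is mitotic germ cells from laser-dissected wild-type testes, with 3 libraries. Testes mutant for tut (tut3), named SG-tut, for bam (bamBG/bamΔ86), named SG-bam, and for bgcn (bgcn20093/bgcnQS2), named SG-bgcn, contained mainly mitotic germ cells and have 2 libraries each; these genes are needed for germ cells to leave mitosis. SC is meiotic germ cells from laser-dissected wild-type testes, with 3 libraries, and is the group that all others were set against. The sources used here say neither how old the flies were nor whether replicate libraries stem from separate flies. SG and SC cDNA came from a low-input kit (SMARTer) followed by Nextera XT, and the mutant testes went through Trizol, mRNA enrichment and another kit. Genotype, tissue and kit therefore cannot be told apart between the mutant testes and SC or SG. The tables give the authors' average per group, so no value per library or replicate error can be shown. Depth is unknown, and the files name no unit for the levels and do not say whether they are per length, which limits any comparison of levels between genes or of an extension with its gene. In these averages, fewer cells of a type and less RNA per cell cannot be told apart.

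A share of 100% was a ceiling in these genes. In all 751 rows the share equals the extension level divided by the gene level, with 1e-05 added to both, and a quotient above 1 was written as 1. Without that ceiling the extension stood at 100.2% to 1424% of the gene level in SG, with a median of 184% and quartiles of 128% and 257%. The highest value was that of cnc, whose gene level is listed for fzo as well. The extension was at least 200% of the gene level in 46 of the 110 genes and under 110% in 11. Values above 100% cannot be a part of a whole, so the quotient compares 2 separately measured levels and is no measured fraction of long transcripts. The ceiling was reached by 115 genes in SG, of which the rule kept the 110 with an SC share below 50%. In SC the share ran from 0.00345% to 49.3% with a median of 9.54%, below 10% in 55 genes and below 1% in 14.

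The rule drew its lines through a continuous range. Just inside on the SG side lay CG10289, whose extension was 100.2% of the gene level in SG, and step with 101%. Just outside lay CG3797 with 99.9% and EcR with 99.6%, and 9 genes had SG shares from 90% to under 100% and SC shares below 50%. On the SC side CG4393 with 49.3% and cac with 46.3% were inside. A further 5 genes at 100% in SG were left out because their SC share was above 50%: spg with 53.9%, CG43066 with 63%, ppk12 with 71.7%, Nf1 with 79% and nod with 79.2%.

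**Figure D1:**
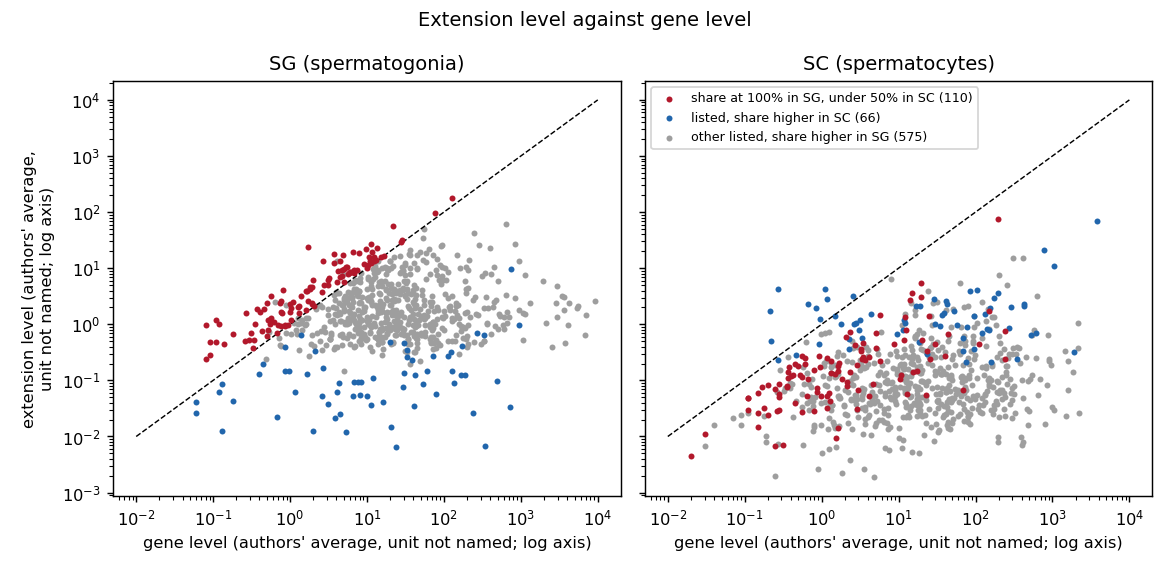
Extension level (vertical, log axis) against gene level (horizontal, log axis) for listed genes in SG (left) and SC (right), each point 1 gene and the dashed line equality; genes with an extension at 0 are not drawn. The 110 genes lie on or above the line in SG and, where drawn, below it in SC, mostly at low gene levels.

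The extension itself was far more abundant in SG than in SC, while the gene level moved either way. The rule favours an extension that is high relative to the gene in SG and low in SC, so this is a description. Among all 751 listed genes, no log2 fold of the extension level lay between -1.156 and 1.0185. The median extension level of the 110 genes was 3.88 in SG and 0.13 in SC. In 101 of them (91.8%) the extension level was at least 10-fold higher in SG. The same held for 479 of the 575 other genes with the higher share in SG (83.3%) and for 77.2% of all 751. The median gene level was 1.8 in SG and 1.52 in SC. It was higher in SG for 60 genes (54.5%, against 59.5% of all 751) and lower for 50. It was more than 2-fold higher in SG for 44 genes (40%), more than 2-fold lower for 38 (34.5%) and within 2-fold for 28 (25.5%). Over all 751 listed genes these shares were 39.5%, 24.9% and 35.6% in that order. The median log2 fold of the extension level was 5.05 and that of the gene level 0.44. These medians were 4.56 and 0.64 over the 575 other genes with the higher share in SG, and 4.46 and 0.46 over all 751. Of the 110 genes, 109 had in the authors' deposited table an FDR of 0.05 or less with the higher share in SG, as had 88.5% of all listed genes, and CG30054 was the exception (FDR 0.0669). The files do not say which of the quantities was tested, and the rule used this contrast, so nothing is read from the count.

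**Figure D2:**
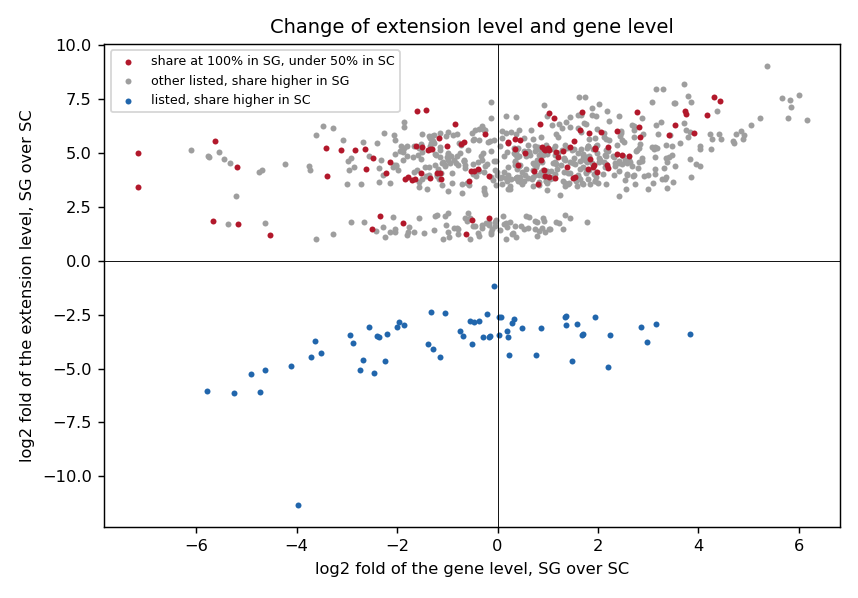
Log2 fold of the extension level (vertical) against log2 fold of the gene level (horizontal), SG over SC, each point 1 listed gene with extension levels above 0 in both groups. The 108 genes of the set that are drawn lie at positive extension folds, on both sides of no change in gene level.

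Low gene levels were common among them. The gene level was below 1 in SG for 40 of the 110 genes, below 1 in SC for 47 and below 1 in both for 28. Of the 575 other listed genes with the higher share in SG, 8 were below 1 in SG and 45 below 1 in SC, with a median gene level of 23 in SG and 19 in SC. A small divisor raises the share, and 51 of the 110 genes had a gene level of at least 1 in both groups. The highest gene levels in SG were those of CG40472 (126 in SG and 194 in SC), Sam-S (76.4 in SG and 19.4 in SC), wdb (28.1 in SG and 4.09 in SC), Trf2 (27.7 in SG and 44 in SC) and AGO1 (21.7 in SG and 5.68 in SC).

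The extensions were long and lay mostly in annotated 3′ UTR, a property that the rule did not use. Their median length was 819.5 bases, against 570 bases for the 575 other genes with the higher share in SG and 348 bases for the 66 with the higher share in SC. Extensions of at least 2000 bases made up 22 of the 110 (20%) and 57 of the 575 (9.91%). All 110 genes were matched to the annotation, 108 by identifier and 2 (LIMK1 and ds) by symbol and position. The extension touched the gene's own annotated 3′ UTR in 92 of them (83.6%), against 311 of 569 matched other genes (54.7%), and at least 50% of it lay there in 85 (77.3%), against 216 (38%). It lay wholly past the annotated end of the gene in 17 (15.5%), against 230 (40.4%), ended inside the gene in 42 and crossed its end in 51.

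A distal end within 50 bases of an annotated transcript end was found for 39 of the 110 extensions (35.5%), against 76 of 569 (13.4%). The genes spanned a median of 14449 bases, against 4625 bases. Gene level moved with these values, and among genes with an SG gene level under 10 the differences were smaller or similar. There the extension touched the own 3′ UTR in 76 of 93 (81.7%), against 104 of 163 (63.8%), and its median length was 770 bases, against 532 bases. Its distal end lay within 50 bases of an annotated one in 30 of 93 (32.3%), against 33 of 163 (20.2%), and the median gene span was 13948 bases, against 7846 bases. SG gene levels still differed there, with medians of 1.29 against 5.55. With a gene level of at least 1 in both groups, the distal end lay there in 22 of 51 (43.1%), against 66 of 522 (12.6%). The proximal end went the other way, within 50 bases of an annotated end in 19 of 51 (37.3%), against 312 of 522 (59.8%). Without that minimum it was so in 74 of 110 (67.3%), against 355 of 569 (62.4%). SG gene levels still differed with the minimum, with medians of 5.78 against 27.1. The own 3′ UTR was then touched in 44 of 51 (86.3%), against 279 of 522 (53.4%), and the median length was 790 bases, against 590 bases. These differences carry no test, because the genes were chosen with results of these data known. An exon of another gene, transposable elements aside, was touched by 7 of the 110 extensions (6.36%), against 69 of 575 (12%). On the X chromosome lay 33 of the 110 genes (30%), against 131 of 575 (22.8%) and 165 of all 751 (22%). Among genes with an SG gene level under 10, the X held 31 of 93 (33.3%), against 49 of 165 (29.7%).

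**Figure D3:**
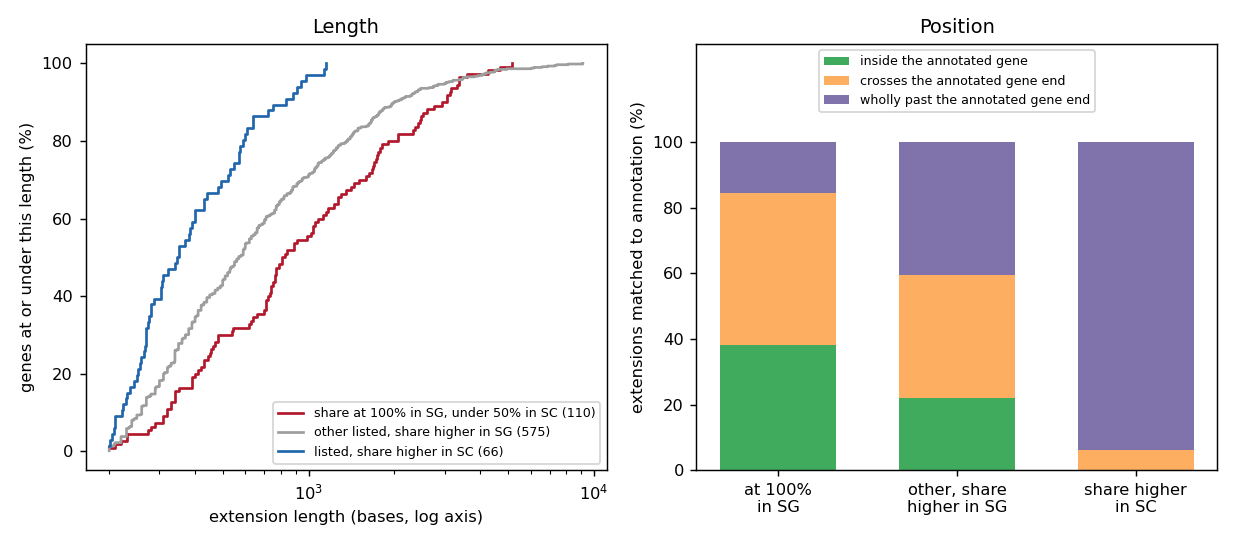
Left, cumulative percentage of genes by extension length in bases (log axis); right, percentage of annotation-matched extensions inside, across or past the annotated gene end, for 3 sets of listed genes. The 110 genes have the longest median, 819.5 bases, and the smallest part wholly past the gene end, 15.5%.

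The extension was at its highest relative to the gene where it ended inside the annotated gene. Its median was 229% of the gene level in SG for those 42 genes, 156% for the 51 that crossed the end and 142% for the 17 that lay wholly past it. The corresponding median gene levels were 0.76, 4.4 and 0.86 in SG, and 0.72, 2.12 and 1.27 in SC. The longest extension was that of CanA-14F, with 5180 bases (X, minus strand, 16560293 to 16565472 in dm6), of which 4789 lay in annotated 3′ UTR and 391 past the gene end. It was followed by CG10289 with 4670 bases, lap with 4240, mub with 3600 and wdb with 3380. In 10 of the 110 genes the extension also held annotated coding bases, 899 of 3160 in Sam-S, 82 in mub and 270 in lap, and the part of coding exons in those levels was not tested.

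AGO1, mub and qkr54B act on RNA, a grouping made after their values were seen. AGO1 encodes the Argonaute protein that carries microRNAs. Its extension (2R, minus strand, 13943378 to 13945436 in dm6), of whose 2059 bases 2050 are annotated 3′ UTR, had a level of 55.8 in SG and 1.48 in SC, and its gene level was 21.7 in SG and 5.68 in SC. Extension and gene were thus both higher in SG, the extension by far the more, and the SC share was 26.1%. mub encodes a KH-domain RNA-binding protein, and its row has the lowest FDR of all 751 genes (6.14e-114 in the authors' deposited table). Its extension (3L, plus strand, 21924125 to 21927724 in dm6) had a level of 11.5 in SG and 0.188 in SC, with a gene level of 10.2 in SG and 2.88 in SC. For qkr54B, a relative of the RNA-binding protein Quaking, the extension level was 16.9 in SG and 0.139 in SC and the gene level 4.9 in SG and 0.37 in SC. The SC share of qkr54B, 37.6%, rests on that low SC level. Of 24 symbols in the list of RNA-binding and splicing regulators, 8 were in the table and 1 of these, mub, was in the set, near the 14.6% over all listed genes, the others being orb, Imp, Sxl, Hrb27C, shep, mbl and Rbp6.

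Brat, Mei-P26 and Wech belong to the TRIM-NHL proteins, and the genes of all 3 were in the set, again a grouping made after their values were seen. Brat acts with Nanos and Pumilio as a translational repressor, and Mei-P26 restrains the proliferation of germ cells. The brat extension level was 13.2 in SG and 0.367 in SC and the gene level 12.4 in SG and 3.22 in SC. For mei-P26 the extension level was 12.4 in SG and 0.241 in SC, whereas the gene level was 11.4 in SG and 25.6 in SC and so lower in SG. wech had an extension level of 21.9 in SG and 0.465 in SC and a gene level of 9.83 in SG and 3.4 in SC. All 3 extensions lay wholly within the gene's annotated 3′ UTR, over 2330, 2450 and 1270 bases. Of 15 symbols in the list of germline stem cell and spermatogonial regulators 4 were in the table, and besides brat and mei-P26 these were stg and tut, which were not in the set. None of the 3 polyadenylation factor genes in the table and none of the 12 cytosolic ribosomal protein genes belonged to the 110. The counts from these lists are small, and over all listed genes the share in the set was 14.6%.

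Among transcription factors, 5 of the 10 listed members of a 54-symbol list were in the set, beside 14.6% of all listed genes. Of the 5, 3 had a gene level of at least 1 in both groups, namely zfh1, Mef2 and cnc. The gene levels listed for cnc are also those listed for fzo, as given below. zfh1, a zinc finger homeodomain repressor known from cyst stem cells, had an extension level of 27.4 in SG and 0.435 in SC and a gene level of 11.3 in SG and 2.7 in SC. pnt, the ETS factor at the end of Ras signalling, had 19.5 in SG and 0.177 in SC for the extension and 6.59 in SG and 0.49 in SC for the gene. In both genes the level of the message itself was also higher in SG. For Mef2, the MADS-box factor of muscle, the extension level was 9.81 in SG and 0.146 in SC and the gene level 5.03 in SG and 1.61 in SC. Eip78C, an ecdysone-induced nuclear receptor, had an extension level of 1.68 in SG and 0.0879 in SC at a gene level of 0.76 in SG and 4.68 in SC, so here the gene was lower in SG while the extension was higher. The other listed members of the list, abd-A, Eip75B, lola, fru and EcR, had SG shares under 100%. Outside the list, the zinc finger gene jing had an extension level of 6.25 in SG and 0.0528 in SC and a gene level of 3.14 in SG and 0.98 in SC. The extension level of Trf2, a TATA-binding protein relative, was 29.9 in SG and 0.668 in SC, and that of nej, the CBP acetyltransferase, was 12.6 in SG and 0.7 in SC. Their gene levels were lower in SG, with 27.7 in SG and 44 in SC for Trf2 and 3.71 in SG and 5.14 in SC for nej.

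Of cell adhesion and guidance genes, 8 of the 12 listed members of a 48-symbol list were in the set, beside 14.6% of all listed genes, but only 2 of the 8, CadN and DIP-theta, had a gene level of at least 1 in both groups. CadN, the N-cadherin gene, had an extension level of 6.74 in SG and 0.14 in SC and a gene level of 3.21 in SG and 2.34 in SC. kek1, which encodes a leucine-rich repeat inhibitor of the EGF receptor, had an extension level of 13.2 in SG and 0.17 in SC and a gene level of 10.9 in SG and 0.94 in SC. Both genes were higher in SG as a whole. For Ten-a, a teneurin, the extension level was 2.4 in SG and 0.0301 in SC at a gene level of 0.5 in SG and 0.28 in SC. Sema-1a, a transmembrane semaphorin, had 2.4 in SG and 0.073 in SC for the extension and 1.95 in SG and 0.87 in SC for the gene. The protocadherin gene ds had an extension level of 4.1 in SG and 0.118 in SC and a gene level of 0.81 in SG and 0.4 in SC. In these 3 genes the gene level was below 1 in SC, and the SC share rests on little signal. The gene was lower in SG for the others. kirre, needed for myoblast fusion, had an extension level of 1.17 in SG and 0.00948 in SC and a gene level of 0.51 in SG and 1.55 in SC, and the Robo ligand gene sli had an extension level of 1.19 in SG and 0.0316 in SC and a gene level of 0.11 in SG and 1.18 in SC. DIP-theta, an immunoglobulin-domain partner of the Dpr receptors, had an extension level of 3.21 in SG and 0.0678 in SC, wholly past the annotated gene, at a gene level of 1.38 in SG and 68.1 in SC. PlexA, Fas2, Nrg and robo1 were in the table without being in the set.

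Outside that list, Sema-1b had an extension level of 18.8 in SG and 0.53 in SC and a gene level of 7.85 in SG and 20.4 in SC. beat-IIIc, of the Beat family of immunoglobulin proteins, had 9.35 in SG and 0.267 in SC for the extension and 4.69 in SG and 40.7 in SC for the gene. Both genes were lower in SG as a whole. Of the 28-symbol list of ion channel and synaptic genes 4 were in the table, and 3 of them were in the set, beside 14.6% of all listed genes, at very low levels, Cam being the other. cac, the calcium channel of synapses, had an extension level of 2.61 in SG and 0.176 in SC at a gene level of 0.77 in SG and 0.38 in SC, and the L-type channel gene Ca-alpha1D had 1.02 in SG and 0.0607 in SC at 0.55 in SG and 1.26 in SC. The potassium channel gene Sh had an extension level of 0.956 in SG and 0.0694 in SC at a gene level of 0.08 in SG and 0.25 in SC, and 172 coding bases lie in its extension. None of these 3 channel genes had a gene level of at least 1 in both groups.

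**Figure D4:**
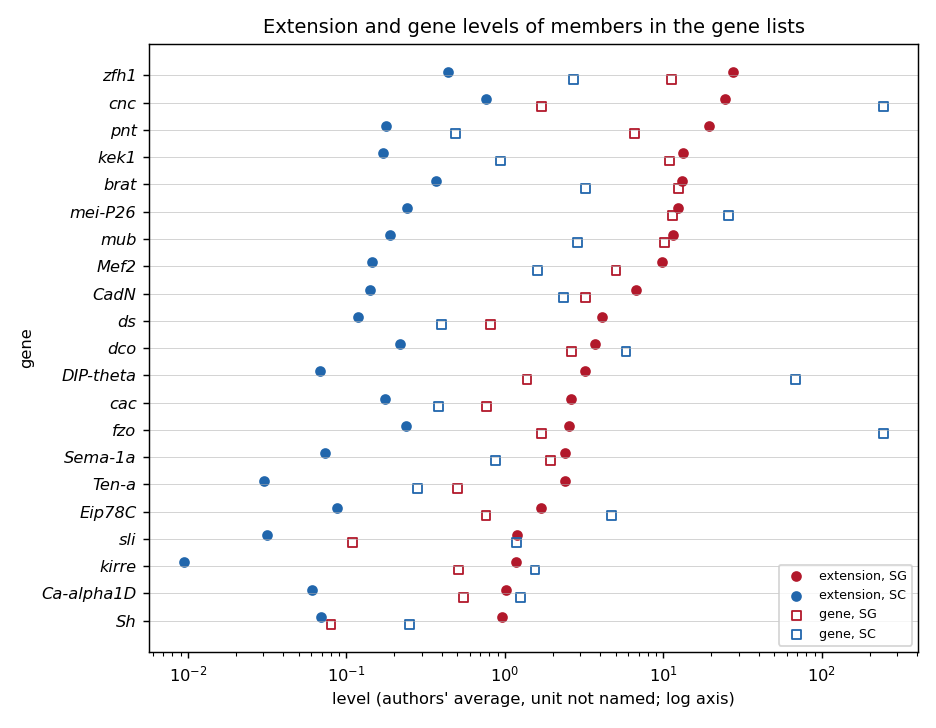
Extension levels (filled circles) and gene levels (open squares) in SG (red) and SC (blue), log axis, for the 21 genes of the set that belong to at least 1 gene list. The SG extension lies at or right of the SG gene level in every row and right of the SC extension, while SC gene levels lie on either side.

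Signalling genes, grouped like those of metabolism after their values were seen, included wdb, a regulatory subunit of protein phosphatase 2A. Its extension (3R, minus strand, 27561662 to 27565041 in dm6), of whose 3380 bases 3367 are annotated 3′ UTR, had a level of 31.7 in SG and 0.266 in SC, and its gene level was 28.1 in SG and 4.09 in SC. kibra, an upstream component of the Hippo pathway, had an extension level of 12.1 in SG and 0.198 in SC and a gene level of 9.08 in SG and 0.6 in SC. The calcineurin gene CanA-14F had 2.31 in SG and 0.0775 in SC for the extension and 1.95 in SG and 0.35 in SC for the gene. In these 3 genes both levels were higher in SG. Pli, the Pellino ubiquitin ligase, had an extension level of 22.9 in SG and 0.515 in SC at nearly equal gene levels of 13.4 in SG and 11.7 in SC. In contrast, step, an Arf guanine nucleotide exchange factor, had 15.6 in SG and 0.449 in SC for the extension and 15.4 in SG and 109.6 in SC for the gene. LIMK1, which phosphorylates cofilin, had an extension level of 8.8 in SG and 0.329 in SC and a gene level of 4.16 in SG and 23.2 in SC. For dco, a casein kinase of the circadian clock, the extension level was 3.72 in SG and 0.219 in SC and the gene level 2.62 in SG and 5.81 in SC. The last 3 genes were lower in SG as a whole while their extensions were higher. Of 10 listed kinase, phosphatase and GTPase regulator genes, from a 44-symbol list, 1, dco, was in the set. That is near the 14.6% over all listed genes.

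Among metabolic and transport genes, Sam-S, which makes the methyl donor S-adenosylmethionine, had an extension level of 94.4 in SG and 5.44 in SC and a gene level of 76.4 in SG and 19.4 in SC. Ctr1A, a copper importer, had 9.36 in SG and 0.33 in SC for the extension and 7.52 in SG and 3.28 in SC for the gene. Ppcs, of coenzyme A synthesis, had an extension level of 4.61 in SG and 0.0785 in SC and a gene level of 1.79 in SG and 2.13 in SC. For Gclc, of glutathione synthesis, the extension level was 1.93 in SG and 0.127 in SC and the gene level 1.02 in SG and 10.8 in SC. The first pair of genes was higher in SG as a whole and the second pair lower. The highest extension level of the set was that of CG40472, 178 in SG and 76.1 in SC, over 760 bases wholly past the annotated gene. Of the 110 genes 44 carry only a CG number in the authors' deposited table.

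Markers of other testis cells were in the set. Of 17 hub and cyst cell markers 3 were listed, and 2 of these, zfh1 and CadN, were in the set, the third being dally. Of 12 muscle and sheath markers 3 were listed, with Mef2 in the set and Cg25C and Tm1 not. Of 26 spermatocyte and spermatid genes 3 were listed, with fzo in the set and aly and r-cup not. These counts are small, and 14.6% of all listed genes belong to the set. The gene levels of zfh1, CadN and Mef2 were all higher in SG, as given above. The part of somatic cells in the dissected SG sample in these results was not tested.

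In several genes the locus limits what the values mean. cnc, a bZIP factor related to NRF2, and fzo, the mitofusin of spermatids, which lies within the span of cnc, are listed with 1 and the same pair of gene levels, 1.71 in SG and 245 in SC. Their extension levels differed, 24.3 in SG and 0.759 in SC for cnc and 2.56 in SG and 0.239 in SC for fzo, so their shares share a divisor, and the fzo extension touches an exon of cnc. The extension of CG32783 touches an exon of Vap33, that of ena an exon of CG10737 and that of CG13871 an exon of tapas, all on the same strand. For Tsp96F, CG10147 and CG7227 the exon touched was on the opposite strand, and the strand setting of the authors' counting is not given in the sources used here. CG12708 and CG11672 had an extension listed at 0 in SC, and for them no fold is given.

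The mutant testes list part of the same genes. Of the 110, 37 were listed in the table of SG-tut, 41 in that of SG-bam and 39 in that of SG-bgcn. All 3 tables list 24 of them, and 56 were in none. Of the 641 other listed genes, 195 were in the table of SG-tut, 195 in that of SG-bam and 181 in that of SG-bgcn. Partial listing was thus common outside the set too, and 95 of the 575 other genes with the higher share in SG were in all 3. At an FDR of 0.05 in the authors' deposited tables, 36 of the 37 were called with the higher share in SG-tut, in SG-bam 38 of the 41, and in SG-bgcn 37 of the 39. Over all listed genes, 71.9% were called higher in SG-tut, 73.5% in SG-bam and 71% in SG-bgcn. The 4 comparisons share the SC averages, and the rule chose genes with low SC shares, so the direction is partly fixed by the choice. In 117 of 117 rows the SC gene level was the one given beside SG. The proximal end of the extension was the same as in SG in all 117 rows, while its distal end usually differed, being identical in 3, 5 and 4 genes.

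Most of these genes were below the ceiling of 100% in the mutants, though they were at it more often than all listed genes. The share was 100% in 6 of 37 genes in SG-tut (16.2%), in SG-bam 7 of 41 (17.1%) and in SG-bgcn 8 of 39 (20.5%). Among all listed genes, 5.26%, 5.49% and 7.61% were at 100% in that order. In 22 genes of the set in each table the share was below 50%. The rule required the ceiling in SG alone, so the lower shares in the mutants depend in part on that choice. Median shares were 45.6% in SG-tut against 6.51% in SC, 41.2% in SG-bam against 6.55% in SC, and 45% in SG-bgcn against 7.37% in SC, each over the extension that its own table defines. Over all genes listed with a higher share in the mutant, the median was 14% in SG-tut, 15.1% in SG-bam and 15.8% in SG-bgcn. In the 24 genes listed everywhere, 22 were called higher in all 3 mutants, 19 were at 100% in none of them, 10 were below 50% in all 3 and 4 were at 100% in all 3.

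**Figure D5:**
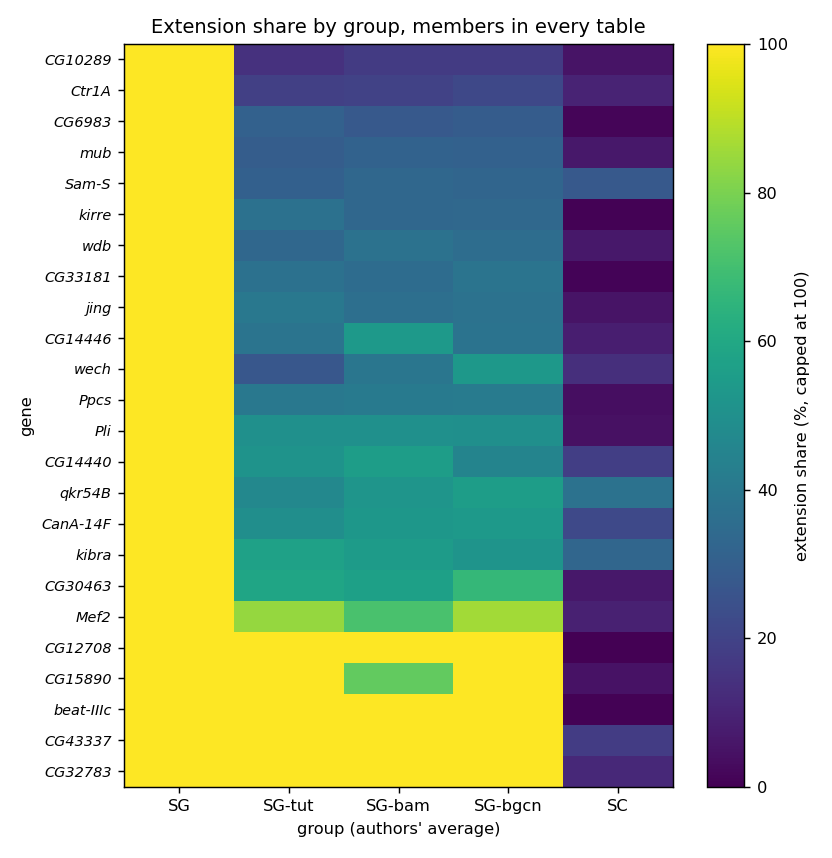
Extension share in percent, capped at 100, of the 24 genes listed in every table (rows) by group (columns), as a colour scale. Each mutant share is over the extension of its own table, and the SC share is the one given beside SG. SG is at 100% by the rule, the mutants are below 100% for 19 genes and SC is the lowest column for every gene, at 0.00476% to 37.6%.

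In these 24 genes SG stood apart from the mutants in gene level more than in extension level, a difference that group averages do not allow to be tested. The median extension level was 9.58 in SG, 9.32 in SG-tut, 10.2 in SG-bam, 10.1 in SG-bgcn and 0.167 in SC. The median gene level was 4.79 in SG, 15.7 in SG-tut, 15.3 in SG-bam, 14.3 in SG-bgcn and 2.5 in SC. SG had a lower gene level than all 3 mutants in 21 of the 24, and a higher extension level than all 3 in 12 and a lower one in 11. For the 95 other genes with the higher share in SG that were listed in every table, SG had the lower gene level in 62. Median gene levels of these 95 were 33.5 in SG and 51.3 to 53 in the mutants. Their extension level in SG was above all 3 mutants in 28 and below all 3 in 47. Its median was 3.62 in SG and 4.69 to 5.04 in the mutants. The rule favours a low gene level and a high extension level in SG, so both comparisons in the 24 genes depend on it. The SC gene level was the same in 117 of 117 rows, but whether SG and the mutants were normalized together is not stated. Kit and tissue also differ. The part of normalization, kit and tissue in this difference cannot be told apart.

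Single genes are given next, each extension level over the extension of its own table and the SC level beside SG. wdb had extension levels of 31.7 in SG, 23.5 in SG-tut, 26.6 in SG-bam, 24.8 in SG-bgcn and 0.266 in SC, and gene levels of 28.1 in SG, 70 in SG-tut, 70.5 in SG-bam, 69.8 in SG-bgcn and 4.09 in SC. Its share was 33.5% in SG-tut, 37.8% in SG-bam and 35.6% in SG-bgcn (FDR 3.71e-20, 1.01e-21 and 3.37e-21 in the authors' deposited tables). The 3 mutants were thus nearly alike, with extensions close to that of SG and gene levels above it. mub had extension levels of 11.5 in SG, 20.5 in SG-tut, 21.2 in SG-bam, 21.6 in SG-bgcn and 0.188 in SC, at gene levels of 10.2 in SG, 69.2 in SG-tut, 67.8 in SG-bam, 69.9 in SG-bgcn and 2.88 in SC, and shares of 29.7% in SG-tut, 31.3% in SG-bam and 30.9% in SG-bgcn. For jing the extension levels were 6.25 in SG, 6.1 in SG-tut, 4.64 in SG-bam, 4.28 in SG-bgcn and 0.0528 in SC, the gene levels 3.14 in SG, 15.2 in SG-tut, 12.8 in SG-bam, 11.4 in SG-bgcn and 0.98 in SC and the shares 40% in SG-tut, 36.4% in SG-bam and 37.5% in SG-bgcn. Ppcs, at a similar gene level in SG and SC, had gene levels of 1.79 in SG, 16.2 in SG-tut, 17.8 in SG-bam, 17.5 in SG-bgcn and 2.13 in SC and shares of 39.9% in SG-tut, 41.3% in SG-bam and 41.8% in SG-bgcn. Mef2 had shares of 84.1% in SG-tut, 71.2% in SG-bam and 86.3% in SG-bgcn, at gene levels of 5.03 in SG, 8.92 in SG-tut, 6.46 in SG-bam, 6.81 in SG-bgcn and 1.61 in SC.

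A few genes stayed at the ceiling across the mutants, with extension levels far above the gene level in places. beat-IIIc had extension levels of 9.35 in SG, 12.5 in SG-tut, 18.2 in SG-bam, 25.8 in SG-bgcn and 0.267 in SC at gene levels of 4.69 in SG, 1.03 in SG-tut, 2.59 in SG-bam, 3.37 in SG-bgcn and 40.7 in SC. SC was therefore the group with the highest level of the gene and the lowest level of the extension. CG32783, whose extension touches Vap33, had extension levels of 18.2 in SG, 107 in SG-tut, 112 in SG-bam, 106 in SG-bgcn and 1.37 in SC at gene levels of 3.68 in SG, 4.94 in SG-tut, 5.67 in SG-bam, 5.82 in SG-bgcn and 12 in SC. CG12708 and CG43337 were also at 100% in all 3, at gene levels of 0.86 in SG, 1.4 in SG-tut, 1.14 in SG-bam, 1.58 in SG-bgcn and 0.21 in SC for CG12708 and of 0.33 in SG, 0.33 in SG-tut, 0.51 in SG-bam, 0.36 in SG-bgcn and 0.15 in SC for CG43337. The extension of fzo was at 100% in both mutants that list it, SG-bam and SG-bgcn, at gene levels of 1.71 in SG, 1.49 in SG-bam, 0.93 in SG-bgcn and 245 in SC.

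Of the translational regulators, wech was listed in all 3 mutants with shares of 27.1% in SG-tut, 39.2% in SG-bam and 53.3% in SG-bgcn, at gene levels of 9.83 in SG, 35.3 in SG-tut, 37.4 in SG-bam, 38.2 in SG-bgcn and 3.4 in SC. mei-P26 was listed in 2, with 20.9% in SG-bam and 19.4% in SG-bgcn at gene levels of 11.4 in SG, 40.4 in SG-bam, 30.4 in SG-bgcn and 25.6 in SC, and its extension level was 12.4 in SG, 8.44 in SG-bam, 5.88 in SG-bgcn and 0.241 in SC. brat and AGO1 were in none of the mutant tables, which list selected genes, so no value can be set beside theirs. Of the markers of other cells, zfh1 was listed with shares of 41.2% in SG-bam and 44.3% in SG-bgcn (FDR 0.0556 and 0.0403 in the authors' deposited tables) and gene levels of 11.3 in SG, 9.99 in SG-bam, 8.98 in SG-bgcn and 2.7 in SC. Its call passed in SG-bgcn and not in SG-bam. CadN was not listed in the mutants. Of the adhesion genes, kirre had 37.3% in SG-tut, 33.6% in SG-bam and 33.7% in SG-bgcn and kek1, listed once, 53.8% in SG-bam. Gene levels of kirre were 0.51 in SG, 1.94 in SG-tut, 4.17 in SG-bam, 1.86 in SG-bgcn and 1.55 in SC, higher in the mutants than in SG.

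Several further genes were listed in 1 or 2 mutants. Cadps, needed for the release of dense-core vesicles, had an extension level of 13.3 in SG and 0.266 in SC and a gene level of 4.42 in SG and 3.46 in SC, with shares of 100% in SG-tut and 100% in SG-bgcn. Pur-alpha, which encodes a single-stranded nucleic acid binding protein, had 8.14 in SG and 0.378 in SC for the extension and 6.81 in SG and 5.11 in SC for the gene, and shares of 13.2% in SG-tut and 13.9% in SG-bam. The first gene was thus at the ceiling in the mutants that list it, and the second far below it. For jvl the extension level was 19.1 in SG and 1.39 in SC, the gene level 11.5 in SG and 25.2 in SC and the share 40% in SG-tut and 53.1% in SG-bgcn. sdt, a scaffold of the Crumbs complex, was listed once with 47.5% in SG-bgcn, the ubiquitin ligase gene Trim9 with 52.5% in SG-bgcn, and the zinc finger gene peb with 30.4% in SG-bam. The receptor subunit gene nAChRalpha4 was listed with 61.7% in SG-tut, at gene levels of 0.34 in SG, 0.92 in SG-tut and 17.1 in SC. The lowest share of all was that of CG8949, 2.01% in SG-bam against 1.34% in SC over the same extension, and it was not called (FDR 0.0685 in the authors' deposited table).

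Genes that carry a CG number in the authors' deposited table are given next. CG6983 had an extension level of 15.5 in SG and 0.436 in SC, a gene level of 12.2 in SG and 30 in SC and shares of 31.1% in SG-tut, 27.8% in SG-bam and 29% in SG-bgcn. CG33181 had 5.66 in SG and 0.144 in SC for the extension, 5.07 in SG and 15.5 in SC for the gene and shares of 37.2% in SG-tut, 35.5% in SG-bam and 38.4% in SG-bgcn. In both, the gene was lower in SG than in SC while the extension was higher. CG30463, now named Pgant9 in the annotation, had an extension level of 13.6 in SG and 0.807 in SC, a gene level of 2.69 in SG and 12.6 in SC and shares of 58.6% in SG-tut, 57% in SG-bam and 66.4% in SG-bgcn. CG14446, now dtn, and CG14440 were also listed in all 3 mutants, with 38.6% in SG-tut, 53.8% in SG-bam and 38% in SG-bgcn for CG14446 and 51.4% in SG-tut, 55.8% in SG-bam and 45% in SG-bgcn for CG14440. The clathrin adaptor gene lap had an extension level of 10.3 in SG and 3.06 in SC and a gene level of 5.28 in SG and 19.4 in SC, and Lrch, listed in no mutant, 14 in SG and 3.56 in SC for the extension and 13.2 in SG and 14.7 in SC for the gene. CG15890 reached the ceiling in some mutants, with 100% in SG-tut, 75.8% in SG-bam and 100% in SG-bgcn, at gene levels of 0.7 in SG, 0.71 in SG-tut, 1.13 in SG-bam, 0.87 in SG-bgcn and 0.55 in SC. The 41 genes of the set outside the lists and mutant tables and away from its extremes had extension levels from 0.238 to 15.8 in SG and from 0.00456 to 1.76 in SC, and gene levels from 0.08 to 10.5 in SG and from 0.02 to 148 in SC. Their SC shares ran from 0.454% to 44.2%, and 24 of them had more of the gene in SG.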

How the data were processed

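Build dm6 and the tools TopHat2 2.1.0, Trimmomatic 0.33, FastQC 0.11.3, CASAVA, DESeq2, Cuffdiff 2.2.1 and Cufflinks 2.2.1 come from the submitters' processing notes. What each tool did, and how the authors defined the extensions, is not given in the sources used here. Each of 4 deposited tables holds, per the file headers, average levels (unit not named) of extension and gene per group, the long-form share as a fraction from 0 to 1, the log2 fold of the mitotic group over SC, the extension's length, and the p-value and FDR, all the authors' own. Genes that a table does not list have no value here.

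Members were taken by the rule, with shares printed as percentages. No test over genes was run. A call is an authors' FDR of 0.05 or less in the direction of the share. The planned motif counts were not run, because no genome sequence was used here. Extensions were set against Ensembl release 115 (dm6 coordinates, counted from 1). Named by rule were members in 1 of 11 gene lists or in a mutant table, the 10 with the highest SG gene level, the 10 with the lowest FDR, the 5 longest and the 5 with the lowest SC share, 69 in all. Some of them are given with part of their values, and olf413, Osi20 and 4 genes with CG numbers only within ranges and counts. Members and lists were chosen with earlier results of these data known. Alternative shares, level minimums and thresholds were tried. Python 3.11.15 and pandas 2.3.3 were used.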

Additional observations from a re-analysis of the deposited data

How the results depend on the processing

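Requiring an SC share below 10% left 55 of the 110 genes, and a gene level of at least 1 in both groups left 51. With a gene level of at least 1 in both groups, the members called higher numbered 23 in SG-tut, 23 in SG-bam and 24 in SG-bgcn. Subtracting the extension level from the gene level left 0 genes higher and 110 lower in SG, by construction, since the extension level reaches the gene level in each. At an SG share of at least 90% the set had 119 genes, without extensions that touch another gene's exon 103, and, chosen after seeing the data, 108 without fzo and cnc and 100 without coding bases in the extension. At an FDR of 0.01 the calls numbered 97 in SG, 25 in SG-tut, 29 in SG-bam and 25 in SG-bgcn. The median extension length was 790 bases with a gene level of at least 1 in both groups. No paired analysis was possible because the tables hold group averages, and for the same reason no library could be left out.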

Other observations

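The log2 folds of the extension level fell into 2 bands in every table, among genes with the higher share in the mitotic group and an extension above 0 in SC. In SG no gene lay between log2 folds of 2.202 and 2.986, with 94 genes below this gap and 588 above it. The gap ran from 3.11 to 4.09 in SG-tut, from 3.32 to 4.07 in SG-bam and from 3.36 to 4.11 in SG-bgcn. Of the 108 genes of the set with an extension above 0 in SC, 9 lay in the lower SG band: lap, Lrch, nAChRalpha4, sv and 5 genes with CG numbers. The cause of the bands was not tested.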
